A study of Mus musculus with 26 samples.

Results

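Gata1-EGFP mice carry a transgene that marks cells with Gata1 activity by enhanced green fluorescent protein (GFP). PreMegE, the pre-megakaryocyte-erythroid progenitors, were compared with PreGM GFP+, the reporter-positive pre-granulocyte-macrophage progenitors, by taking every array so titled, 3 of each, 6 of the 26 arrays of the series. All 8 sorted populations came from the bone marrow of mice of genotype Gata1-EGFP Tg/+ that were 8 to 15 weeks old. Both gates take lineage-negative cells that are Kit-positive, Sca1-negative and negative for CD41, for FcgRII/III and for CD105. PreMegE are CD150-positive, and their label names no reporter gate. PreGM GFP+ are CD150-negative and EGFP-positive. The other populations were PreGM without reporter signal (PreGM GFP-, 3 arrays) and granulocyte-macrophage progenitors with (GMP GFP+, 3) and without it (GMP GFP-, 4). Stem cells without reporter signal (HSC GFP-, 3) were titled as CD150-positive and Flt3-negative. Lymphoid-primed multipotent progenitors (LMPP, 4) and common lymphoid progenitors (CLP, 3) made up the rest. Each array was a Mouse Gene 1.1 ST array that gave 1 log2 signal per probe set, and 19938 genes were compared. The comparison asks how close these Gata1-expressing populations, separated by CD150, lie to each other and which genes part them. Whether the replicates are separate animals is not in the labels, and p-values therefore cover the spread of these arrays alone, which may be technical.

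GATA1 is a zinc-finger transcription factor that works with GATA2, FOG1 (encoded by Zfpm1), TAL1 and LMO2, and is needed for red cells, megakaryocytes, mast cells and eosinophils. PreMegE are known as a common source of megakaryocyte and erythroid progenitors. Mast cells and basophils carry the high-affinity IgE receptor, store histamine and release it when the receptor is cross-linked. Neutrophils fill primary granules with myeloperoxidase and serine proteases early in their development, and secondary granules with lactoferrin and related proteins late.

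Differences are PreMegE minus PreGM GFP+ on the log2 scale, so a difference of 1 is 2-fold, and a gene is called at a Benjamini-Hochberg adjusted p under 0.05 in limma over all genes. Limma called 13 of 19938 genes (0.0652%), of which 3 were higher in PreMegE (0.0150%) and 10 lower (0.0502%). Ms4a2, Fcer1a and Hdc, genes of mast cells and basophils, were among the lower ones with the myeloperoxidase gene Mpo and the regulator gene Lmo4. F2r, which encodes a thrombin receptor, Chil3 and Slamf1 were the higher ones. Slamf1 encodes CD150, on which the gates were set, so its difference is a check of the sort. With the 6 arrays fitted alone limma called 0 genes, with 879 at an unadjusted p under 0.05, so that the 13 calls rest on the spread estimated over all 26 arrays. In the fit of all arrays 764 genes had an unadjusted p under 0.05 (3.83%), 327 of them higher in PreMegE and 437 lower. Groups that do not differ would be expected to give a share at least as large.

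The bases before the start of 4 called genes are printed to show what the 3 mast cell and basophil genes that fell have before their starts, beside F2r, the called gene of the megakaryocyte list. Each is the 250 bases upstream of a RefSeq start (GRCm38.p6), 5′ to 3′ on the strand of the gene. Capitals mark GATAA, the core that GATA factors are known to bind, on the printed strand, or its reverse complement TTATC.
Ms4a2, chr19:11623720-11623969, minus strand: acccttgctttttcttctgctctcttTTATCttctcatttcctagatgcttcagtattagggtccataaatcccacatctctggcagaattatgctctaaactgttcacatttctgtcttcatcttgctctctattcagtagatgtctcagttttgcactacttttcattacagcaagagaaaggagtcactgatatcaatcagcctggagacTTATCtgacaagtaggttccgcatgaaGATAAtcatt
Fcer1a, chr1:173227230-173227479, minus strand: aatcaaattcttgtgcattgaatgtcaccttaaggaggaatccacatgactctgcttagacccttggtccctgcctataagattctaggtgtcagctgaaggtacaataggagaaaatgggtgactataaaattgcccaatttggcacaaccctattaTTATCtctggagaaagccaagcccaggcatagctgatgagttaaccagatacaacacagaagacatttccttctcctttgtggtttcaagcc
Hdc, chr2:126618679-126618928, minus strand: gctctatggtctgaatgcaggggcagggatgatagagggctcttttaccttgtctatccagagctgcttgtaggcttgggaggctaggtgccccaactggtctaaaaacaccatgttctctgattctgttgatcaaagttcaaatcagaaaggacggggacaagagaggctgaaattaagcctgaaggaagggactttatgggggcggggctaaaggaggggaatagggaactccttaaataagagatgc
F2r, chr13:95618467-95618716, minus strand: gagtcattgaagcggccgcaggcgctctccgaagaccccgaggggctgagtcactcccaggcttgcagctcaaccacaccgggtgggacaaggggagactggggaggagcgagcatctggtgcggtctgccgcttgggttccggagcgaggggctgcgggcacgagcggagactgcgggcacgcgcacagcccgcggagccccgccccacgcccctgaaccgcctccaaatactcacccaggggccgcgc
The Ms4a2 window has 3 matches, whose first printed bases lie 224, 37 and 10 bases before the start, and the Fcer1a window has 1, at 92 bases. Those of Hdc and F2r have 0 matches to this form, which does not show that they lack a GATA site. Of the 13 called genes 12 were in the RefSeq promoter table, and 5 of them had a match, the others being Chil3 with 2 and Slamf1 and Fdx1 with 1 each. Of all 32851 windows of the same length 22.6% had a match, and of all 27025 genes 25.5%. A match is a description of these letters only.

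The populations were the closest of the 28 pairs that 8 groups allow, with 13 genes called. LMPP and PreGM GFP- came next with 174 (0.873%), then GMP GFP+ and PreGM GFP+ with 203 (1.02%), and the most were 2573 (12.9%) between GMP GFP- and HSC GFP-. The root mean square distance between group means over all genes was 0.22 log2 units, also the smallest of the 28, and 0.29 for LMPP and PreGM GFP-. These counts are a description, since groups hold 3 or 4 arrays. A missed threshold does not show likeness, so the intervals were counted. For 18401 genes (92.3%) the 95% confidence interval of the difference lay wholly within 1 log2 unit of 0, and 80 genes differed by 1 or more in either direction. The median difference was 0.01. The arrays of the 3 PreMegE and 3 PreGM GFP+ samples did not overlap for 1874 genes (9.40%), with PreMegE above in 1038 (5.21%) and below in 836 (4.19%). With 3 arrays against 3, groups that do not differ would give about as large a share. For a single gene that is not called, a lack of overlap is therefore no evidence of a difference.

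**Figure D1:**
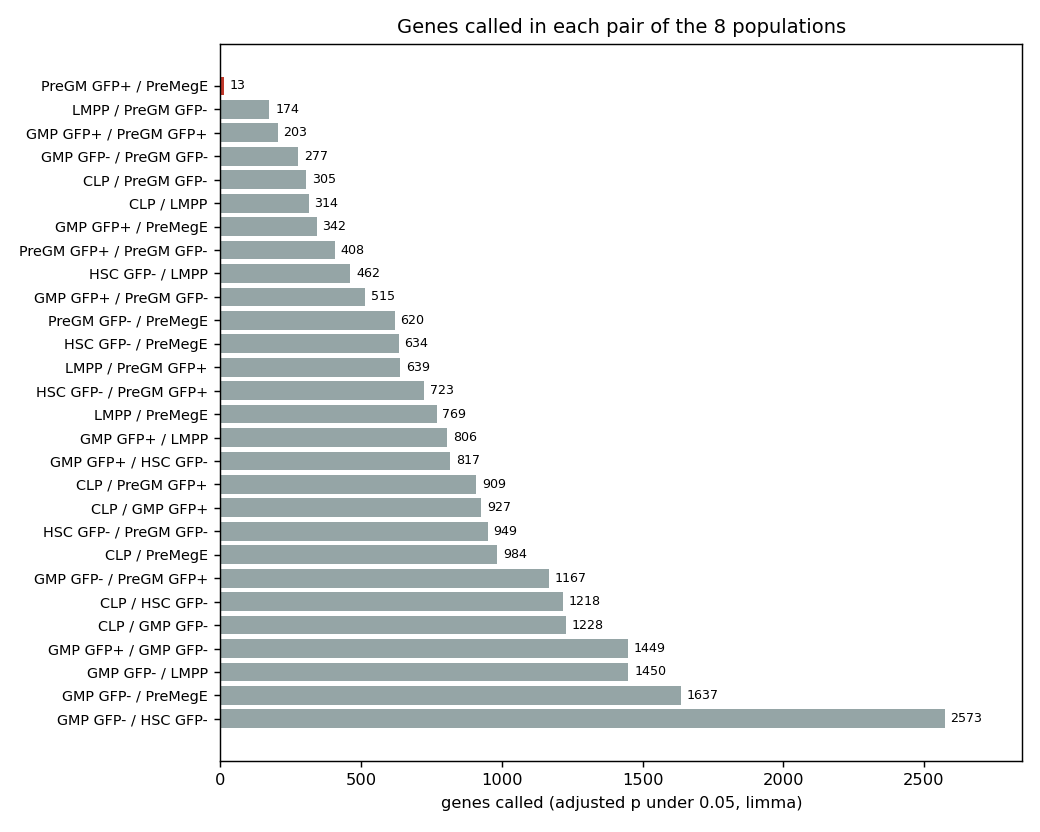
Number of genes called by limma (adjusted p under 0.05, horizontal axis) in each of the 28 pairs of sorted populations (rows). PreMegE and PreGM GFP+, in red, have 13, the fewest, and the next pair has 174.

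Single arrays of the populations lay as close to each other as arrays of 1 population did. PreMegE array 2 was nearer to PreGM GFP+ array 1, at a distance of 0.292, than to PreMegE array 3, at 0.312, or array 1, at 0.449. PreMegE array 1 stood apart, with distances of 0.449 and 0.462 to the other PreMegE arrays and the widest residual SD of the 6 arrays, 0.285 against 0.177 to 0.228. Without it limma called 2 genes higher and 5 lower in PreMegE. The 5 were Ms4a2, Hdc, Lmo4, Mpo and Lcp1, and the 2 were Cavin2 and Nckap1, neither of them called with all arrays. Ms4a2, Hdc, Lmo4, Mpo and Lcp1 also kept their calls when any other of the 6 arrays was left out. The counts higher and lower were 0 and 8 without PreMegE array 2, 2 and 9 without PreMegE array 3, 0 and 10 without PreGM GFP+ array 1, 0 and 8 without array 2 and 1 and 6 without array 3. Each of the other 8 called genes lost its call when at least 1 array was left out: Atp8b4 kept it in 3 of the 6 settings, Fcer1a in 2, and Chil3, F2r, Slamf1, Fdx1, Ly6e and Stn1 in 1 each.

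**Figure D2:**
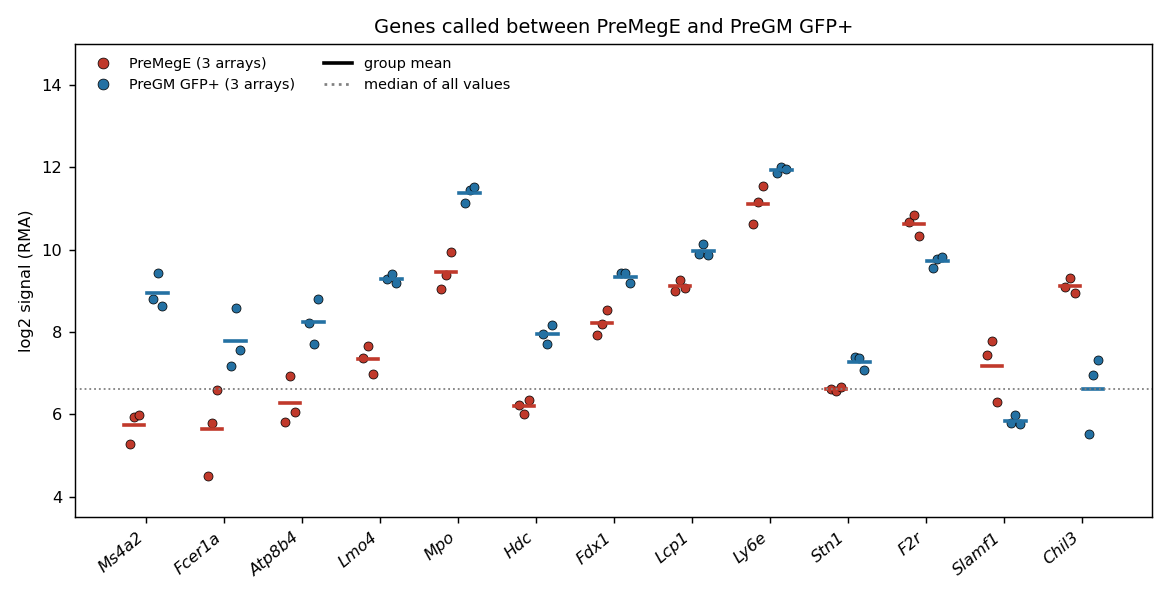
Log2 RMA signal (vertical axis) of the 13 called genes in each array of PreMegE (red) and PreGM GFP+ (blue), with group means as bars. No gene has overlapping groups, and the dotted line is the median of all values, 6.61.

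Gata1 itself was not called. Its log2 signal was 8.10, 8.67 and 8.63 in PreMegE arrays 1, 2 and 3 and 8.70, 8.01 and 8.74 in PreGM GFP+ arrays 1, 2 and 3. The arrays overlapped, and the difference was -0.01 with a 95% interval of -0.40 to 0.38. Among 21 genes of GATA1 complex partners and targets 0 were called, where 0.0652% of all genes were. Of the 21, 20 had an interval within 1 log2 unit of 0 (95.2%, against 92.3% of all genes). At an unadjusted p under 0.05, 3 of the 21 were higher and 2 lower, where 1.64% and 2.19% of all genes were. The PreMegE arrays lay wholly above for 1 of the 21 and below for 3, where they did for 5.21% and 4.19% of all genes. Zfpm1 differed by 0.38, Lmo2, an adaptor of the complex, by 0.31, Tal1 by 0.26 and Gata2, the earlier GATA factor, by -0.45, all not called.

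No erythroid gene was called with all arrays, where 0.0652% of all genes were. At that share 0 calls are to be expected of a list this small. A smaller share of erythroid genes than of all genes was bounded by the interval. Of 24 measured, 2 reached an unadjusted p under 0.05 (both lower: 8.33%, against 2.19% of all genes), and 19 had an interval within 1 log2 unit of 0 (79.2%, against 92.3% of all genes). The PreMegE arrays lay wholly below for 4 (16.7%, against 4.19%) and above for 2 (8.33%, against 5.21%). The median difference was -0.11, against 0.01 over all genes. Car1, an early erythroid carbonic anhydrase, was 12.16, 12.41 and 12.53 in PreMegE and 11.89, 12.02 and 12.12 in PreGM GFP+. All 6 values lay above the Car1 means of the other 6 populations, of which GMP GFP+ had the highest, 10.84. Car1 differed by 0.36, with an interval of -0.32 to 1.04. The lipid transporter gene Mfsd2b, at 10.28 and 10.25, differed by 0.03, and its mean in GMP GFP+ was 7.72. Klf1, the erythroid Krüppel-like factor, differed by -0.09 and Epor, the erythropoietin receptor gene, by 0.03. Of the genes of heme synthesis and iron 0 of 20 were called, where 0.0652% of all genes were. All 20 had an interval within 1 log2 unit of 0 (100%, against 92.3% of all genes). Rhd, a blood group gene, had the largest difference of the erythroid list, -0.77, but was not called (adjusted p = 0.662), and its arrays overlapped. Without PreGM GFP+ array 1 Rhd was called, at -1.11 (adjusted p = 0.0354).

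The largest difference of all was in a gene of mast cells and basophils, Ms4a2, and every called gene of that list was lower in PreMegE. Of 36 measured, limma called 3 lower in PreMegE and 0 higher, where 0.0502% and 0.0150% of all genes were. For 13 of the 36 the PreMegE arrays lay wholly below the PreGM GFP+ arrays (36.1%, against 4.19% of all genes). The median of the list was -0.09. Of the 36, 16 had a mean over all arrays above the median of all values, 6.61. The mature mast cell protease genes Mcpt4, at 5.07 and 5.16, and Cma1, at 5.65 and 5.57, were under it in both populations. In sorted pools, fewer cells of a type and less RNA per cell cannot be told apart.

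Ms4a2, the beta chain of the high-affinity IgE receptor, was 5.27, 5.94 and 5.98 in PreMegE and 8.80, 9.43 and 8.64 in PreGM GFP+. Every PreGM GFP+ array lay above every PreMegE array by over 2 log2 units. The difference was -3.23 (SE 0.28, adjusted p = 1.91e-06). Fcer1a, the alpha chain that binds IgE, was 4.50, 5.80 and 6.60 in PreMegE and 7.16, 8.59 and 7.56 in PreGM GFP+. The groups did not overlap, but PreMegE arrays spread over 2 log2 units, with array 1 lowest. The difference was -2.14 (SE 0.40, adjusted p = 0.0442), a call lost without PreMegE array 1, when the difference was -1.57 (adjusted p = 0.305). Hdc, histidine decarboxylase, which makes histamine, was 6.24, 6.0 and 6.36 in PreMegE and 7.95, 7.72 and 8.17 in PreGM GFP+. Its groups were narrow and apart, and the difference was -1.75 (SE 0.17, adjusted p = 1.17e-05). The PreMegE means of all 3 genes were under 6.61, where a log2 difference is one of signal and need not equal that of the RNA, so none is given as a fold.

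Other members of the list had lower means in PreMegE without a call, and are named here after their values were seen. Rnase12, a ribonuclease gene, was 5.71, 4.88 and 5.13 in PreMegE and 7.37, 7.97 and 7.60 in PreGM GFP+. Cpa3, the mast cell carboxypeptidase, was 7.38, 7.92 and 7.88 in PreMegE and 9.63, 9.98 and 9.44 in PreGM GFP+. Neither overlapped, with differences of -2.41 (adjusted p = 0.0952) and -1.96 (adjusted p = 0.180). Alox5, the 5-lipoxygenase of leukotriene synthesis, differed by -0.84 (adjusted p = 0.0791), Gzmb, granzyme B, by -1.24, Mcpt8, the basophil protease, by -1.56 and Fcer1g, the signalling chain shared by Fc receptors, by -1.21. Slc18a2, which loads histamine into granules, differed by -0.06, at 9.73 and 9.79, and the mast cell regulator gene Mitf by 0.22. Gzmb was called without PreGM GFP+ array 1, at -1.57 (adjusted p = 0.0337), and was -0.68 without array 3; Mcpt8 was -0.98 without array 2. Of 10 eosinophil genes 0 were called, where 0.0652% of all genes were. At an unadjusted p under 0.05, 2 of the 10 were lower (20%, against 2.19% of all genes) and 0 higher. The PreMegE arrays lay wholly below for 2 (20%, against 4.19%) and above for 0.

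**Figure D3:**
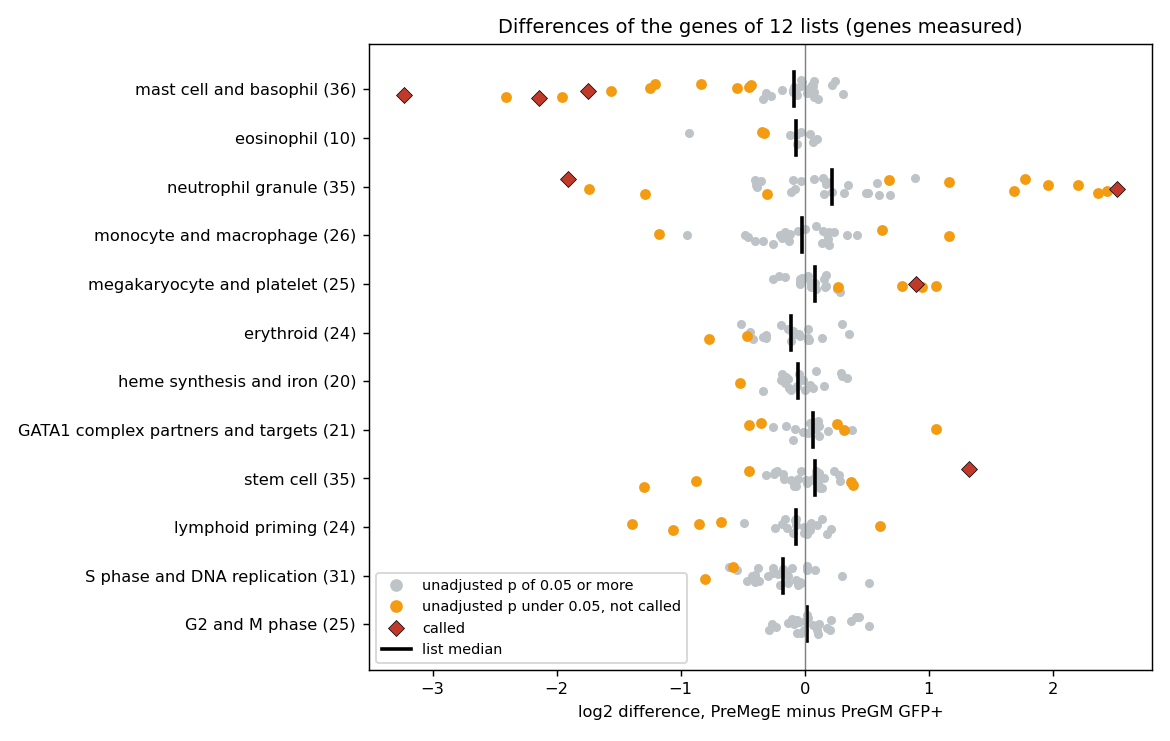
Log2 difference, PreMegE minus PreGM GFP+ (horizontal axis), of each measured gene of 12 lists (rows, number measured in brackets). Diamonds are called genes, orange points reach an unadjusted p under 0.05 and bars are list medians; the called mast cell and basophil genes lie between -3.23 and -1.75, and no erythroid gene is called with all arrays.

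Genes of neutrophil granules went both ways. Of 35 measured, limma called 1 higher in PreMegE (Chil3) and 1 lower (Mpo), where 0.0150% and 0.0502% of all genes were. For 14 the interval lay within 1 log2 unit of 0 (40%, against 92.3% of all genes), and the median was 0.22. Mpo, myeloperoxidase of primary granules, was 9.04, 9.38 and 9.95 in PreMegE and 11.13, 11.45 and 11.52 in PreGM GFP+. The groups stood more than 1 log2 unit apart, and the difference was -1.91 (SE 0.25, adjusted p = 9.93e-04), 3.76-fold. The primary granule protease gene Ctsg and Ms4a3, a membrane protein gene of granulocyte progenitors, differed by -1.74 (adjusted p = 0.158) and -1.29 (adjusted p = 0.160) with no overlap of arrays. Elane, neutrophil elastase, differed by 0.15 and Prtn3, proteinase 3, by -0.40.

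Chil3, a chitinase-like secreted protein of myeloid cells, was 9.10, 9.31 and 8.94 in PreMegE and 5.53, 6.96 and 7.32 in PreGM GFP+. PreMegE arrays were alike, and PreGM GFP+ array 1 was lowest. The gene has close relatives that may share its probes. Chil3 was higher in PreMegE by 2.52 (SE 0.47, adjusted p = 0.0442), a difference of signal since its PreGM GFP+ mean was 6.60. Without PreGM GFP+ array 1 it was 1.98 (adjusted p = 0.275).

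Genes of late neutrophil granules and of calprotectin, named after their values were seen, had higher means in PreMegE but were not called. Ngp, neutrophilic granule protein, was 11.56, 10.25 and 9.71 in PreMegE and 6.31, 8.39 and 9.52 in PreGM GFP+. S100a9, a calprotectin subunit, was 11.90, 11.69 and 11.68 in PreMegE and 7.08, 10.07 and 11.03 in PreGM GFP+. The groups did not overlap for either, and PreGM GFP+ array 1 was lowest in both. Differences were 2.44 for Ngp, 2.36 for S100a9, 2.21 for S100a8 (adjusted p = 0.608), 1.96 for Lcn2, lipocalin 2, 1.78 for Camp, cathelicidin (adjusted p = 0.543), and 1.69 for Ltf, lactoferrin. Without PreGM GFP+ array 1 they were 1.55 for Ngp, 1.21 for S100a9 and 1.32 for S100a8. Averaged over the 35 genes, the signal relative to the mean of each gene over all 26 arrays was -0.02, -0.22 and -0.20 in PreMegE and -0.96, -0.43 and -0.36 in PreGM GFP+. The PreMegE arrays lay above the PreGM GFP+ arrays for 11 of the 35 genes (31.4%, against 5.21% of all genes) and below for 3 (8.57%, against 4.19%). No array value is 0, so no member could be called absent. The part of neutrophil-lineage cells in the Chil3 result was not tested.

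**Figure D4:**
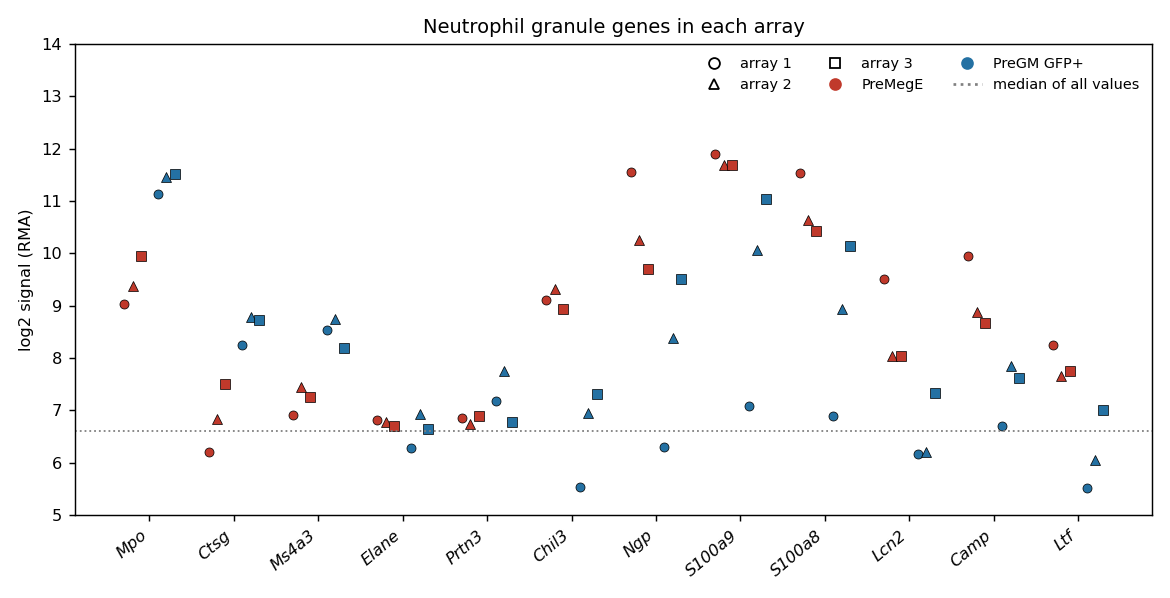
Log2 RMA signal (vertical axis) of 12 neutrophil granule genes in each array, with red for PreMegE, blue for PreGM GFP+ and the array number by symbol. Mpo is called lower and Chil3 higher in PreMegE; the other genes are not called, and PreGM GFP+ array 1 (blue circle) is lowest for Ngp, S100a9 and S100a8.

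A few genes of the megakaryocyte and platelet list were higher in PreMegE, and 1 of them was called. Whether that gene, F2r, marks the megakaryocyte lineage in these mouse cells was not tested. Of 25 measured, limma called 1 higher (F2r) and 0 lower, where 0.0150% and 0.0502% of all genes were. An unadjusted p under 0.05 was reached by 5, all higher (20%, against 1.64% of all genes). For 20 the interval lay within 1 log2 unit of 0 (80%, against 92.3%). Of the 25 differences 17 were positive and 8 negative, with a median of 0.09, against 0.01 over all genes. The PreMegE arrays lay wholly above for 4 (16%, against 5.21%) and below for 1 (4%, against 4.19%). F2r, the thrombin receptor PAR1, was 10.67, 10.85 and 10.34 in PreMegE and 9.57, 9.76 and 9.83 in PreGM GFP+. The groups did not overlap, and F2r was higher in PreMegE by 0.90 (SE 0.16, adjusted p = 0.0234), 1.86-fold. It kept that call in 1 of the 6 settings that each left out 1 array. The related gene F2rl2 differed by 0.28 and was not called. Cavin2, a caveola coat protein gene, was the nearest gene to the threshold among those not called, at 0.95 (adjusted p = 0.0742). Named after their values were seen, the platelet glycoprotein gene Gp5 differed by 0.79, and Pf4, platelet factor 4, by 1.06 with overlapping arrays: 5.66, 8.36 and 8.37 in PreMegE and 5.60, 6.29 and 7.32 in PreGM GFP+. With 1 array left out Pf4 differed by 0.61 to 1.97 and was not called, the highest value being that without PreMegE array 1, and Cavin2 was called without that array, at 1.16 (adjusted p = 0.0156). Itga2b, which encodes CD41, absent from the surface of both by their gates, differed by -0.26.

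Among regulators of cell fate limma called 1 of 56 (0.0652% of all genes were called), Lmo4, a LIM-only adaptor protein of transcription complexes. Lmo4 was 7.37, 7.65 and 6.98 in PreMegE and 9.30, 9.41 and 9.19 in PreGM GFP+. PreGM GFP+ arrays lay close together and more than 1 log2 unit above each PreMegE array, and the difference was -1.96 (SE 0.28, adjusted p = 0.0029), 3.90-fold. For 50 of the 56 genes the interval lay within 1 log2 unit of 0 (89.3%, against 92.3% of all genes). At an unadjusted p under 0.05, 4 were higher (7.14%, against 1.64% of all genes) and 4 lower (7.14%, against 2.19%). Ikzf2, the Ikaros-family factor Helios, differed by -0.88 (adjusted p = 0.252), Cebpa, the granulocyte factor, by -0.73 (adjusted p = 0.583) and the MADS-box factor gene Mef2c by 0.69, none of them called.

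Of 42 cytokine receptor genes 0 were called, where 0.0652% of all genes were. Of the 42, 36 had an interval within 1 log2 unit of 0 (85.7%, against 92.3% of all genes). At an unadjusted p under 0.05, 1 was higher (2.38%, against 1.64% of all genes) and 3 lower (7.14%, against 2.19%). The PreMegE arrays lay wholly above for 3 (7.14%, against 5.21%) and below for 3 (7.14%, against 4.19%). The chemokine receptor gene Cxcr4 was 9.79, 10.37 and 10.48 in PreMegE and 11.03, 10.87 and 11.05 in PreGM GFP+, a difference of -0.77 without overlap (adjusted p = 0.171). Csf2rb, the beta chain shared by the receptors of IL-3, IL-5 and GM-CSF, differed by -1.13 (adjusted p = 0.940) and Flt3 by 0.61. Kit, positive in both gates, differed by 0.09.

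Slamf1 followed the gates. It was 7.43, 7.79 and 6.29 in PreMegE and 5.78, 5.98 and 5.78 in PreGM GFP+. PreMegE array 3 was lowest of its group but still above every PreGM GFP+ array, and the difference of signal was 1.33 (SE 0.25, adjusted p = 0.0442). Eng, which encodes CD105, differed by -0.03, and Fcgr3, an Fc gamma receptor gene, by -0.49 with an interval of -1.01 to 0.03. Cd34, which neither label uses as a gate, was 7.04, 8.32 and 7.86 in PreMegE and 8.62, 9.34 and 9.14 in PreGM GFP+. The groups did not overlap, and the difference of -1.30 was not called (adjusted p = 0.143); it was called without PreMegE array 2, at -1.59 (adjusted p = 0.0465). In the stem cell list, 35 genes, Slamf1 was the 1 gene called, where 0.0652% of all genes were.

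The other 5 called genes belong to no list of a lineage, and all were lower in PreMegE. Lcp1, the leukocyte actin-bundling protein L-plastin, was 9.01, 9.26 and 9.07 in PreMegE and 9.89, 10.13 and 9.88 in PreGM GFP+. These ranges were narrow and apart, and the difference was -0.86 (SE 0.13, adjusted p = 0.00366), 1.81-fold. In the other 6 populations its means lay between 11.18 and 11.42, above both. Atp8b4, which encodes a P4-type ATPase, was 5.82, 6.94 and 6.07 in PreMegE and 8.22, 7.70 and 8.81 in PreGM GFP+, a difference of signal of -1.97 (SE 0.31, adjusted p = 0.00839). It lies on chromosome 2 with 1 protein-coding gene between it and Hdc.

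Fdx1, the mitochondrial ferredoxin that passes electrons to cytochromes P450, was 7.92, 8.21 and 8.54 in PreMegE and 9.43, 9.43 and 9.18 in PreGM GFP+. It differed by -1.13 (SE 0.21, adjusted p = 0.0442), 2.18-fold. Ly6e, a lipid-anchored surface protein, was 10.62, 11.16 and 11.56 in PreMegE and 11.86, 12.02 and 11.97 in PreGM GFP+. PreMegE array 1 was its lowest, and the difference of -0.84 (SE 0.16, adjusted p = 0.0442) was -0.59 without that array (adjusted p = 0.305). Stn1, of the complex that caps telomeres, was 6.63, 6.57 and 6.67 in PreMegE and 7.38, 7.36 and 7.09 in PreGM GFP+, a difference of -0.66 (SE 0.12, adjusted p = 0.0442), 1.58-fold.

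Across the 8 populations the called genes had different patterns. Ms4a2 and Fcer1a were highest in GMP GFP+, at 10.87 and 10.56, then in PreGM GFP+, at 8.96 and 7.77, then in PreMegE, at 5.73 and 5.63, and between 4.26 and 5.50 elsewhere. Mpo was highest in GMP GFP-, at 13.36, and PreMegE, at 9.46, lay above HSC GFP- alone, at 8.78. F2r was highest in PreMegE, at 10.62, then PreGM GFP+, at 9.72, and HSC GFP-, at 8.52. Slamf1 was 7.17 in PreMegE and 7.15 in HSC GFP-, which do not differ beyond their spread, and 4.87 to 5.84 elsewhere. Both of these populations were sorted as CD150-positive, so their Slamf1 levels follow the gates. Chil3 was higher only in GMP GFP-, at 10.56, than in PreMegE, at 9.12.

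**Figure D5:**
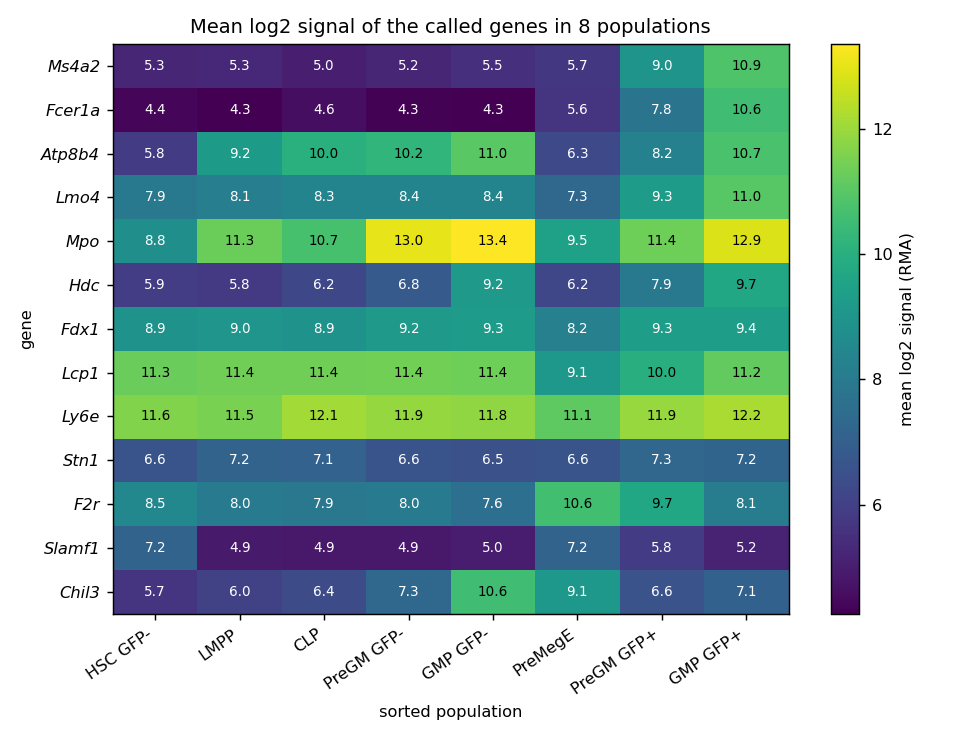
Mean log2 RMA signal (colour and number) of the 13 called genes (rows) in the 8 sorted populations (columns; 3 or 4 arrays each). Ms4a2 and Fcer1a rank GMP GFP+, PreGM GFP+, PreMegE, and Lcp1 is lower in PreMegE and PreGM GFP+ than in the other 6.

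The GMP reporter comparison shares no array with PreMegE or PreGM GFP+. In GMP GFP+ against GMP GFP- limma called 642 genes higher (3.22%) and 807 lower (4.05%). Of the 10 genes lower in PreMegE than in PreGM GFP+, 4 were higher in GMP GFP+ (40% of the 10, 0.623% of the 642) and 0 lower. They were Fcer1a by 6.30, Ms4a2 by 5.37, Lmo4 by 2.64 and Stn1 by 0.69. Hdc differed by 0.50 there and was not called. Of the 3 genes higher in PreMegE, F2r was higher in GMP GFP+ by 0.52 and Chil3 differed by -3.48, a call for lower. Of the whole mast cell and basophil list, 22 of 36 genes were called higher in GMP GFP+ and 0 lower. For the neutrophil granule list these counts were 0 higher and 21 lower of 35. The HSC GFP- against LMPP comparison shares no array with PreMegE or PreGM GFP+ either, but came from the same fit. In it 462 genes were called (2.32%). Among the 13 genes it called Atp8b4, with a difference of -3.39, Mpo, with -2.55, and Stn1, with -0.53, lower in HSC GFP-, and Slamf1, with 2.25, and F2r, with 0.55, higher. HSC GFP- were titled as CD150-positive, so their Slamf1 level follows a gate.

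No gene of the cell cycle was called, where 0.0652% of all genes were. At that share 0 calls are to be expected of each list named in this paragraph. Of 31 genes of S phase and DNA replication 25 differences were negative and the median was -0.18. The PreMegE arrays lay wholly below for 5 of them (16.1%, against 4.19% of all genes) and above for 0, and 2 were lower at an unadjusted p under 0.05 (6.45%, against 2.19%). Relative to the mean of each gene over all 26 arrays, the 31 genes averaged -0.460, -0.330 and -0.145 in PreMegE, with array 1 lowest. In PreGM GFP+ they averaged -0.151, -0.061 and -0.126, so PreMegE array 3 lay within the range of PreGM GFP+. Of 25 genes of G2 and M phase 0 had arrays that did not overlap, and the median was 0.02. That median was 0.29 without PreMegE array 1. Averaged over the 25 genes, the signal relative to the mean of each gene over all 26 arrays was -0.77, -0.13 and 0.13 in PreMegE and -0.42, -0.43 and -0.08 in PreGM GFP+. Of 23 genes of T and NK cells 0 were called. All 23 had an interval within 1 log2 unit of 0 (100%, against 92.3% of all genes). No gene was called among 21 of B cells, 26 of monocytes and macrophages, 19 of dendritic cells or 21 of stroma and endothelium. Unadjusted p under 0.05 was reached by 0 B cell genes. It was reached by 3 monocyte and macrophage genes, 2 higher in PreMegE (7.69%, against 1.64% of all genes) and 1 lower (3.85%, against 2.19%). Of the dendritic cell genes 2 reached it (10.5%), and of the stroma and endothelium genes 1 (4.76%), all higher. PreMegE arrays lay wholly above for 4 of the 21 stroma and endothelium genes (19.0%, against 5.21%) and 3 of the 19 dendritic cell genes (15.8%), and below for 0 of either. For monocytes and macrophages the counts were 4 above (15.4%) and 3 below (11.5%, against 4.19%), and for B cells 1 above (4.76%) and 0 below. Of 4 sex-linked genes 0 were called. Their signal relative to the mean of each gene over all 26 arrays averaged -0.53, 0.56 and -0.20 in PreMegE. In PreGM GFP+ it averaged 0.44, -0.35 and 0.66. Whether the arrays differ in the sex of the animals was not tested.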

How the data were processed

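RNA of sorted cells was extracted with RNeasy Micro and hybridised as biotin-labelled cRNA, per the labels' protocols. The authors deposited log2 signals for each probe set on every array. RMA and oligo are named in the submitters' processing notes, without versions or the base of the logarithm, and base 2 was taken from the range of the values. Array medians of the 6 arrays compared lay between 6.57 and 6.68. Of 35556 probe sets, the 21789 that name 1 gene were used, by the brightest probe set of a gene, leaving 19938 genes; genes with close relatives may share probes. Signals under the median of all values, 6.61, were not shown to exceed background.

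A linear model with 1 coefficient for each of 8 groups was fitted to all 26 arrays in limma 3.58.1 (R 4.3.3). Benjamini-Hochberg adjustment was over all genes. The fit was tested on simulated data with independent noise and, for each gene, the same spread in every array. That test does not cover an array that stands apart. Lists are described by counts and medians, with no set test. Members and gene lists were chosen with earlier results of these data known. Named by rule are up to 12 called genes each way whose arrays do not overlap, called list genes, Gata1, fate regulators, GATA1 partners, sort markers and cytokine receptors; other genes were chosen after their values were seen. Promoter windows are RefSeq's (GRCm38.p6), searched on both strands. The number of arrays limits the precision. Same-numbered arrays did not deviate together, so numbers were not used as pairs. Alternatives tried were other fits, scalings, filters, probe set rules, a replicate block and leaving out each array.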

Additional observations from a re-analysis of the deposited data

How the results depend on the processing

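No difference of a called gene changed sign under any of 14 other settings. Fitted on the 6 arrays alone, limma called 0 genes higher and 0 lower (879 at an unadjusted p under 0.05). Array weights, whose fit stopped before its tolerance, gave 4 and 17, centring arrays on their medians 1 and 7, quantile normalization 3 and 10, and the mean of probe sets 3 and 11. A trended robust variance gave 3 and 9. A filter to the 11013 genes above the median signal gave 2 and 8, with 9672 differences within 1 log2 unit of 0, and 2 instead of 4 genes shared with the GMP reporter comparison. Testing all 35556 probe sets, an alternative chosen after seeing the data, gave 0 and 6. Leaving out 1 array gave 0 to 2 higher and 5 to 10 lower, and 17477 to 17988 bounded differences.

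The deviations of same-numbered arrays from their group means correlated at -0.04, -0.20 and 0.07, and the numbers were not used as pairs. With 3 arrays a group this does not show that the arrays are unpaired. With the replicate block limma called 1 and 7 genes. PreMegE and PreGM GFP+ had the fewest called genes of the 28 pairs also with array weights (21, against 46 for the next) and with the dim filter (10, against 141). Hdc, Lmo4, Mpo and Lcp1 were called under 13 of these 14 settings and Ms4a2 under 12 of 13, since the dim filter leaves it untested, each missing only in the fit of 6 arrays. The 3 arrays a group, and signals under the median, limit what could be called.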

Other observations

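Probe sets outside the gene comparison were tested with the same fit over all 35556 probe sets. Limma called 0 of the 12146 without a gene name (519 at an unadjusted p under 0.05) and 0 of the 1621 that name several genes (50 at an unadjusted p under 0.05).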
